A study of Danio rerio with 18 samples.

Results

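This account describes 9 zebrafish genes of neural progenitors and early neurons in RNA sequencing of pronephric duct: sox2, sox3, sox19a, her4.1 and gfap of the progenitors, and neurod1, elavl3, stmn1b and gap43 of the neurons. The members were taken by symbol, and they were listed with the difference between the groups of these libraries already known, so that difference is given for them as a description. Of the 9 genes, 7 had a row among the 32820 RefSeq accessions in either count table, 1 accession each. No row was matched to elavl3 or gfap, and these 2 genes were not analysed here. Of the 7 rows, 5 passed the filter on low counts that left 14462 accessions tested.

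Neural progenitors of the vertebrate embryo are kept dividing by transcription factors of the SoxB1 class, to which sox2, sox3 and sox19a belong, and by Notch signalling, whose target her4.1 encodes a repressor of neuronal differentiation. Cells that leave this state switch on proneural factors such as neurod1 and then cytoskeletal proteins of growing axons, among them stathmin (stmn1b) and the growth cone protein encoded by gap43. The gene actl6a encodes a subunit of SWI/SNF chromatin remodelling complexes, and in mouse its product belongs to the progenitor form of the complex and is replaced by that of Actl6b when neurons become postmitotic. The pronephric duct is an epithelial tube of mesodermal origin that runs beside the somites, and it is not a neural tissue. In bulk libraries a difference in the number of such cells and a difference in RNA per cell cannot be told apart.

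Of the 18 libraries, 8 came from embryos that received a morpholino, an antisense oligonucleotide, to block translation of actl6a, and 10 from embryos that received the standard control morpholino, both at the 1-cell stage. All embryos were of wild-type genotype apart from the transgene Na, K-ATPase alpha1A4:GFP, which all carried and which marks the pronephros, and all were taken at 30 hours post fertilisation (hpf). Duct fragments were freed with collagenase and picked by eye for GFP, and the protocols name no sorting of single cells. The labels do not say whether a library is 1 duct or a pool, or whether replicates came from separate injections, so p-values measure the spread between libraries, which may be technical. Because count tables and library barcodes are separate for each group, a batch of preparation cannot be told apart from the morpholino.

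Total counts per library ran from 1731521 to 3393310 in actl6a libraries and from 1564673 to 3301873 in controls. Levels are CPM, counts scaled to a common depth with TMM, a trimmed-mean correction for composition. Where a library held 0 counts of a row, up to 3 could have been missed, or 0.838 to 1.92 CPM in actl6a libraries and 0.844 to 1.95 CPM in controls, for counting error only. The duct gene atp1a1a.4, a Na,K-ATPase subunit, was at 1400 ± 184 CPM (SD, n = 8) in actl6a libraries and 1614 ± 334 CPM (SD, n = 10) in controls. The actl6a transcript itself (NM_173240.1) was at 139 ± 12.4 CPM (SD, n = 8) in actl6a libraries and 109 ± 15.6 CPM (SD, n = 10) in controls, which does not measure the protein when translation is blocked.

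Among the SoxB1 genes, sox3 (NM_001001811.2) was the one whose groups did not overlap. It had 34 to 285 counts per actl6a library and 0 to 51 counts per control library, with 0 counts in 2 controls. As a level this was 16.96 CPM at the lowest, 31.9 at the median and 110 at the highest in actl6a libraries, against 0, 2.33 and 16.2 CPM in controls. All 8 actl6a libraries lay above all 10 controls, a separation found for 0.933% of all tested accessions, from which nothing is read here because sox3 was listed for this difference. The nearest libraries were actl6a replicate 4 and control replicate 10, at 16.96 and 16.2 CPM. The log2 fold change of sox3 was 3.47 ± 0.639 (SE).

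The closely related sox2 (NM_213118.1) had groups that overlapped. Its level was 3.32 CPM at the lowest, 17.5 at the median and 82.3 at the highest in actl6a libraries, against 3.25, 8.90 and 20.6 CPM in controls. Only actl6a replicates 1 and 2, at 73.0 and 82.3 CPM, exceeded the highest control, and the other 6 actl6a libraries lay within the control range. Its log2 fold change, 1.48 ± 0.521 (SE), did not pass the threshold. The third SoxB1 gene, sox19a (NM_130908.2), is expressed from the early embryo onwards and was not tested, since it reached the filter's level in 5 of 8 actl6a libraries and 0 of 10 controls. It had 1 to 174 counts per actl6a library and 1 to 4 counts per control library. Replicates 1 and 2 held 31.9 and 70.2 CPM of it, while the other 6 actl6a libraries averaged 3.345 ± 2.10 CPM (SD, n = 6) and the controls 0.980 ± 0.711 CPM (SD, n = 10).

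**Figure D1:**
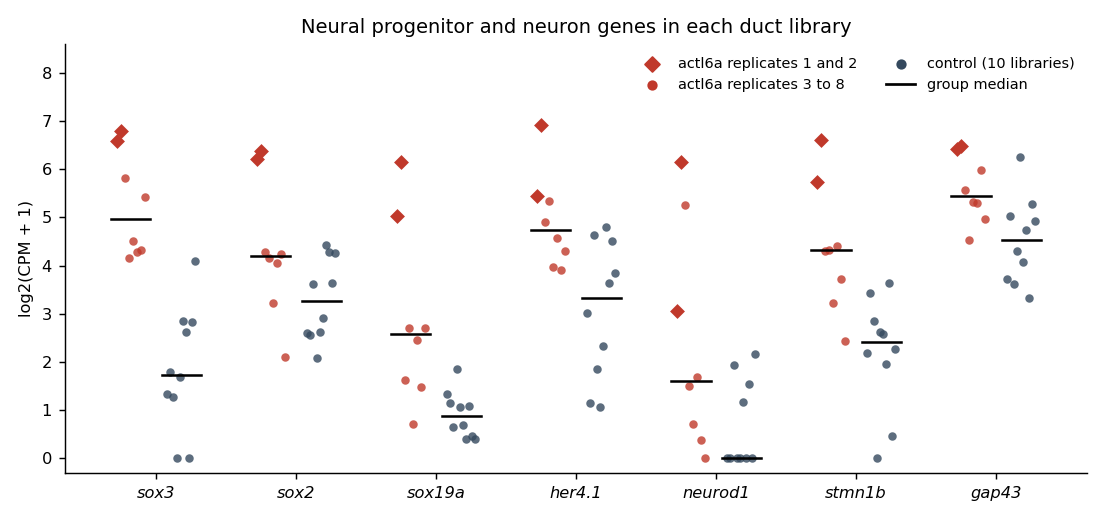
Level of the 7 measured genes in each library, as log2(CPM + 1), with actl6a libraries left of controls for each gene, diamonds for actl6a replicates 1 and 2, dots for other libraries and black lines for group medians. For sox3 every actl6a library lies above every control, while for sox2 the groups overlap and only the 2 diamonds, at 73.0 and 82.3 CPM, exceed every control.

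The balance between sox3 and sox2 within a library was described as a share. Row lengths are constant within this pair, so the share of sox3 in their summed counts can be compared between libraries though not read as a ratio of transcripts. It was 50% at the lowest in actl6a libraries, in replicate 4, and 92.7% at the highest, in replicate 8, against 0% at the lowest and 48.8% at the highest in controls. The groups did not overlap, although the exact 95% binomial intervals of single libraries did, such as 39.4% to 60.6% in actl6a replicate 4 and 32.9% to 64.9% in control replicate 6. Of the 21 pairs of measured members, 1 had shares that did not overlap between groups, and this pair was picked out after its values were seen. Nothing is read from this separation, because sox3 was listed for its difference between the groups. The share of 0% was that of control replicates 4 and 8, which held 5 and 49 counts of sox2. In replicate 8 the 76 counts of sox3 stood beside 6 counts of sox2. That library also had the highest sum of epidermis markers of the 18, 6907 CPM, and the part of such cells in its share was not tested.

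**Figure D2:**
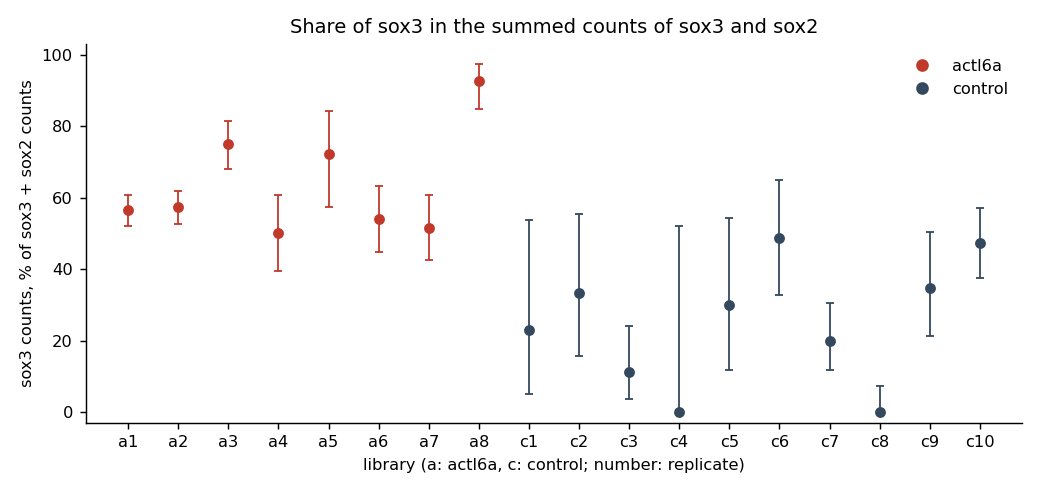
Share of sox3 in the summed counts of sox3 and sox2 in each library, in percent, with exact 95% binomial intervals as bars, actl6a libraries on the left and controls on the right. The 8 actl6a libraries lie between 50% and 92.7% and the 10 controls between 0% and 48.8%. Nothing is read from this separation, because sox3 was listed for its difference between the groups.

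The Notch target her4.1 (NM_001103128.1) was present in every library, with 23 to 298 counts in actl6a libraries and 3 to 85 counts in controls. Its level was 14.1 CPM at the lowest, 25.9 at the median and 120 at the highest in actl6a libraries, against 1.11, 9.24 and 27.0 CPM in controls. Every actl6a library exceeded the control median but only 4 of 8 exceeded the highest control, so the groups overlapped. On the log2 scale the difference was 1.72 ± 0.572 (SE), the smallest among the members that passed the threshold.

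In the RefSeq table of assembly GRCz12tu, her4.1 is 1 of 5 her4 genes that follow each other on a single chromosome, and near-identical copies of this kind may share reads in the authors' counting. The neighbours her4.2 and her4.3, which were not among the 9 genes, had larger fold changes. Levels of her4.2 (NM_001161409.1) were 25.7 ± 37.8 CPM (SD, n = 8) in actl6a libraries and 2.69 ± 1.92 CPM (SD, n = 10) in controls. Their log2 fold changes were 3.22 ± 0.675 (SE; edgeR adjusted p = 0.00370) and, for her4.3, 3.19 ± 0.649 (SE; edgeR adjusted p = 0.00302). For her4.5 it was 2.68 ± 0.811 (SE), where the edgeR adjusted p of 0.0292 became 0.200 without actl6a replicate 2. Without replicates 1 and 2 the call of her4.2 ended, at a log2 fold change of 1.67 (edgeR adjusted p = 0.0542). In actl6a replicate 2 the 5 her4 genes stood at 85.1 to 120 CPM, and the highest control values of her4.2 to her4.5 were 2.45 to 11.0 CPM. How far each her4 value is separate from the others is therefore uncertain.

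Of the neuron genes, stmn1b (NM_001017850.1), which encodes a microtubule-destabilising stathmin, had the larger fold change of the tested pair. It had 8 to 241 counts per actl6a library and 0 to 32 counts per control library. Its level was 4.43 CPM at the lowest, 19.0 at the median and 97.2 at the highest in actl6a libraries, against 0, 4.401 and 11.4 CPM in controls. Every actl6a library exceeded the control median, and 6 of 8 exceeded the highest control. Its log2 fold change was 2.57 ± 0.608 (SE).

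The gene of the growth cone protein, gap43 (NM_131341.1), was counted in all libraries of both groups. It ran from 22.1 CPM through a median of 42.8 to 87.9 CPM in actl6a libraries, against 9.12, 22.3 and 75.2 CPM in controls. The groups overlapped widely, since control replicate 5 at 75.2 CPM exceeded 6 of the 8 actl6a libraries. A log2 fold change of 0.95 ± 0.370 (SE) did not pass the threshold.

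The proneural factor gene neurod1 (NM_130978.2) was close to absent from most libraries and was not tested. It had 0 counts in 6 of 10 controls and in 1 of 8 actl6a libraries. The counts were concentrated in actl6a replicates 2 and 3, with 69.8 and 37.3 CPM, and the median was 2.04 CPM in actl6a libraries and 0 CPM in controls. Zebrafish neurod1 also marks endocrine cells of the pancreas, and the hormone gene sst2 of such cells was at 19.8 ± 4.23 CPM (SD, n = 8) in actl6a libraries and 0.101 ± 0.320 CPM (SD, n = 10) in controls. The hormone gene was present in all 8 actl6a libraries, from 11.8 to 24.6 CPM, and neurod1 was not above 7.30 CPM outside replicates 2 and 3. Other endocrine genes were present in both groups, and the insulin gene ins had 746 counts over the actl6a libraries and 1031 over the controls, with a log2 fold change of -0.15 that was not called. The somatostatin gene sst1.1 had 351 counts over the actl6a libraries and 150 over the controls, with a log2 fold change of 1.58 that was not called. The part of endocrine cells in the neurod1 counts was not tested.

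Over the 5 tested members, 3 were called higher in actl6a libraries (sox3, stmn1b and her4.1) and 0 lower, at a threshold of 0.05 on the p from edgeR's quasi-likelihood test, adjusted by Benjamini and Hochberg's method over all tested accessions. Of all tested accessions, 16.4% were called in either direction, 7.90% higher and 8.52% lower. Because the list was drawn up with this difference known, nothing is read from the count. The 3 called members passed the filter in part through the group in which they were high. Passing took about 8 libraries at the filter's level. In controls sox3 reached it in 4 of 10, stmn1b in 6 and her4.1 in 7, and each did so in 8 of 8 actl6a libraries. The members not called, gap43 and sox2, reached that level in 10 and 9 of the 10 controls. The call of her4.1 was kept in 7 of 18 fits without a single library, and it was lost without actl6a replicate 1, 2, 3 or 4 or without control replicate 1, 2, 4, 5, 6, 8 or 10. Without replicate 2 its log2 fold change was 1.18.

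Replicates 1 and 2 of the actl6a group held the highest levels of these genes. Both were among the 3 highest of the 18 libraries for 7 of the 7 measured genes, and no other library was among the 3 highest for more than 2. Summed over the measured progenitor genes they held 242 and 383 CPM, against 45.4 to 105 CPM in the other 6 actl6a libraries and 8.45 to 53.1 CPM in controls. Without both libraries, an alternative chosen after the values were seen, 1 member was called higher, against 5.48% of all tested accessions. It was sox3, at 29.0 ± 16.1 CPM (SD, n = 6) in the remaining actl6a libraries and 4.13 ± 4.83 CPM (SD, n = 10) in controls, with a log2 fold change of 2.77. The call of stmn1b ended at a log2 fold change of 1.51 and that of her4.1 at 1.02, and sox2 stood at 0.37.

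The same 2 libraries were at the extremes for other tissues. Summed skeletal muscle markers were 12239 and 10475 CPM in replicates 1 and 2, the highest of the 18 libraries, and notochord markers were 337 and 268 CPM, also the highest. Summed pronephros markers were 5655 and 5567 CPM there, the lowest of the 18. Markers of epidermis were not at an extreme there, with 2700 and 2032 CPM, ranks 7 and 9 of the 18.

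The same markers were summed in both groups, from 10 to 18 genes with a row per tissue. Calls of their rows stand beside 7.90% of all tested accessions called higher. Epidermis genes summed to 1217 to 6907 CPM in actl6a libraries and 1392 to 3167 CPM in controls, with 2 of 16 tested rows higher. Blood markers ran from 254 to 3607 CPM in actl6a libraries and 126 to 1470 CPM in controls, with 0 of 10 tested rows called. Yolk and liver markers ran from 242 to 421 CPM in actl6a libraries and 7.15 to 247 CPM in controls, with 5 of 6 tested rows higher. The highest actl6a library lay above the highest control for each of these tissues, while the ranges overlapped for all of them. Muscle markers ran from 619 to 12239 CPM in actl6a libraries and 185 to 9560 CPM in controls, with 0 of 13 tested rows called. Notochord markers ran from 44.1 to 337 CPM in actl6a libraries and 5.201 to 142 CPM in controls, with 1 of 4 tested rows higher. With the mean log2 levels of muscle, blood, epidermis and notochord markers as covariates, 0 of the 5 members were called, where 0.809% of all tested accessions were called higher. The log2 fold change was then 2.41 for sox3, 2.69 for stmn1b, 0.34 for her4.1, 0.29 for sox2 and 0.44 for gap43. The part of these tissues in the members' levels was not tested beyond these fits.

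**Figure D3:**
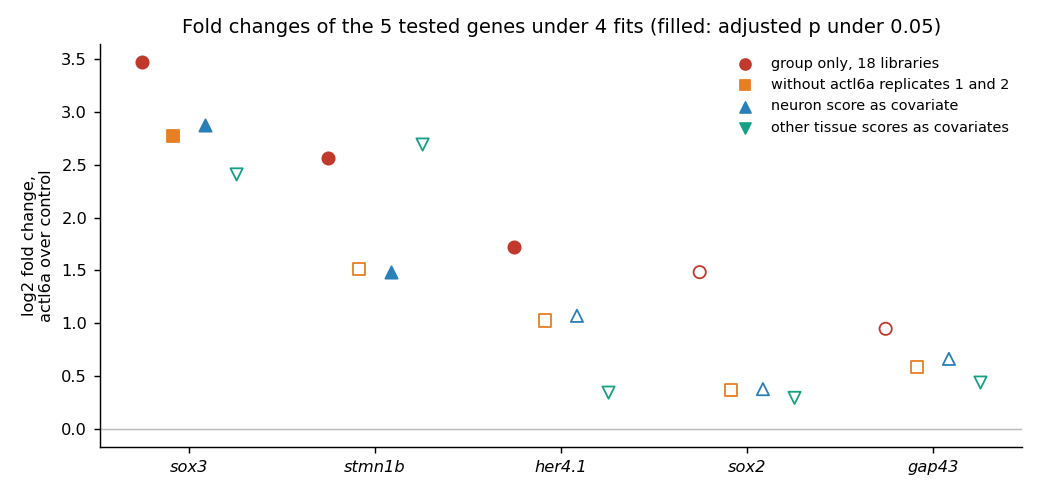
Log2 fold change, actl6a over control, of the 5 tested genes under 4 fits of edgeR's model, with filled symbols for an adjusted p under 0.05. Values of sox3 stay between 2.41 and 3.47, while her4.1 and sox2 come down to 0.34 and 0.29 with other tissue scores as covariates.

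Other neural genes were read from 8 lists of 247 genes without the 9 members, drawn up with earlier results of these data known. In these lists 195 genes had a row and 82 of 218 rows were tested. There were 17 rows called higher and 2 lower in actl6a libraries, and the median log2 fold change was 0.47, against 0.011 over all tested accessions. The share called higher was 20.7%, beside 7.90% over all tested accessions. Nothing is read from this difference, because earlier results were known when the lists were drawn up. Rows could also pass the filter through the group in which they were high, such as foxb1a, with 0 counts in 3 controls. Without actl6a replicates 1 and 2 the count was 8 higher of 83 tested and the median 0.13, and with the other tissue scores as covariates it was 1 higher, the Notch-related her12, and a median of 0.09. Summed over the 8 lists, levels ran from 3741 to 6893 CPM in actl6a libraries and from 2800 to 3777 CPM in controls, and 7 of 8 actl6a libraries exceeded every control. Summed over the early neuron and synapse lists alone, they ran from 396 to 1215 CPM in actl6a libraries and from 462 to 574 CPM in controls, so that sum overlapped. Rows abundant in both groups weigh heavily in the sum over the 8 lists, such as glulb, with a mean of 546 CPM in actl6a libraries and 398 CPM in controls. Nothing is read from these sums, because earlier results were known when the lists were drawn up.

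Among SoxB and other progenitor regulators, 13 of 13 tested rows had a positive log2 fold change and 4 were called higher, with a median log2 fold change of 1.297. Over all tested accessions 7.90% were called higher, the median was 0.011 and the signs were split almost evenly. Rows of this list that did not pass the filter are not in its count, and rows could pass through the group in which they were high. Nothing is read from the count of positive rows, because earlier results were known when the list was drawn up. The called rows were the dorsal neural regulators zic2a (2.50) and msx1b (1.297), the forkhead gene foxb1a (2.30) and hmga2 (0.43), a chromatin protein gene of many embryonic tissues. Levels of zic2a were 30.0 ± 38.7 CPM (SD, n = 8) in actl6a libraries and 5.26 ± 5.06 CPM (SD, n = 10) in controls, where the edgeR adjusted p of 0.0251 became 0.0608 without actl6a replicate 1 and 0.0884 without replicate 2. The call of foxb1a was kept in 6 of 18 fits that left out 1 library and became 0.211 without actl6a replicate 2, that of msx1b was lost without actl6a replicate 3 (0.0577) and that of hmga2 without actl6a replicate 4 (0.0567) or 8 (0.0544). With library totals in place of TMM, 2 of the 13 were called and 13 of 13 kept a positive sign. Without actl6a replicates 1 and 2, 2 of 13 were called and the median of this list was 0.36. With other tissue scores as covariates 0 were called, at a median of 0.30. The remaining SoxB genes did not pass. Of these sox21a was at 33.4 ± 29.2 CPM (SD, n = 8) in actl6a libraries and 16.4 ± 10.6 CPM (SD, n = 10) in controls, sox1b stood at 1.58 on the log2 scale (edgeR adjusted p = 0.223), and sox1a, sox19b and sox21b did not pass the filter.

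In the list of Notch and her genes, 6 of 17 tested rows were called higher and 2 lower, with a median of 0.40. Of all tested accessions 7.90% were called higher and 8.52% lower. Nothing is read from either count, because earlier results were known when the list was drawn up. The hairy-related repressor genes her12 and her9 had the lowest p values. Levels of her12 were 52.2 ± 40.6 CPM (SD, n = 8) in actl6a libraries and 6.66 ± 2.999 CPM (SD, n = 10) in controls, and the log2 fold change was 2.95 ± 0.389 (SE; edgeR adjusted p = 1.13e-04). Its call held in 30 of 30 fits, including that with other tissue scores as covariates (2.82), and 7 of 8 actl6a libraries were above every control. For her9 the levels were 259 ± 43.9 CPM (SD, n = 8) in actl6a libraries and 167 ± 22.3 CPM (SD, n = 10) in controls, and 8 of 8 actl6a libraries exceeded every control, as for 0.933% of all tested accessions. Its log2 fold change was 0.64 ± 0.101 (SE; edgeR adjusted p = 4.95e-04). The receptor genes notch3 (-0.47, edgeR adjusted p = 0.00556) and notch2 (-0.57, edgeR adjusted p = 0.0187) fell. Without actl6a replicates 1 and 2 the call of notch3 was kept (-0.42, edgeR adjusted p = 0.0298) and that of notch2 ended (-0.44, edgeR adjusted p = 0.0733). With other tissue scores as covariates 1 row of this list was called higher and 0 lower. The ligand gene dlb rose (1.75, edgeR adjusted p = 0.0291), a call that ended at 0.0503 without actl6a replicate 1 and at 0.104 without replicate 2.

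The lists of glia and neurons had 1 row called higher each. For the early neuron and synapse lists together the share was 8.70%, near the 7.90% called higher over all tested accessions. Radial glia genes had 1 of 9 tested rows higher, glulb (0.45), one of the glutamine synthetase genes, with a median of 0.10, and this call was lost without actl6a replicate 3, 5 or 8 or control replicate 3. Proneural factors had 1 of 5, pou3f1 (1.65), whose call was kept in 5 of 18 fits that left out 1 library and became 0.165 without actl6a replicate 1. The early neuron structure list had 1 of 10, stmn2a, another stathmin gene, at 26.9 ± 20.7 CPM (SD, n = 8) in actl6a libraries and 4.59 ± 3.28 CPM (SD, n = 10) in controls. Its difference on the log2 scale was 2.53 ± 0.590 (SE; edgeR adjusted p = 0.00706). The synapse and transmitter list had 1 of 13, the G protein subunit gene gng3 (2.70, edgeR adjusted p = 0.00618). Without actl6a replicates 1 and 2 both calls ended, for stmn2a at a log2 fold change of 1.90 (edgeR adjusted p = 0.0530) and for gng3 at one of 0.89 (edgeR adjusted p = 0.162). Genes of transmitter use were unlike each other. The GABA synthesis gene gad1b (NM_194419.1) was counted in every library of both groups, with 99 counts over the actl6a libraries and 94 over the controls, and was not called (0.37). The acetylcholine transporter gene slc18a3a had 108 counts in 2 of 8 actl6a libraries and 2 counts over the controls. The acetylcholine synthesis gene chata had 0 counts over the actl6a libraries and 2 over the controls. The glutamate transporter gene slc17a6b had 2 counts over the actl6a libraries and 1 over the controls. Whether the share of called rows differs between lists was not tested.

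Among brain region regulators 2 of 10 tested rows rose, dlx2a (2.67), a homeobox gene of forebrain and pharyngeal arches, and emx3 (2.18), a gene of the forebrain whose call ended at 0.0522 without actl6a replicate 3. Levels of dlx2a were 49.2 ± 29.8 CPM (SD, n = 8) in actl6a libraries and 7.63 ± 6.62 CPM (SD, n = 10) in controls, at an edgeR adjusted p of 0.00268. In the motor and sensory list 1 of 5 rose, gata2a (2.22), which is also a regulator of blood, at 7.74 ± 2.60 CPM (SD, n = 8) in actl6a libraries and 1.59 ± 1.42 CPM (SD, n = 10) in controls. The share called higher over all tested accessions was 7.90%. Proneural genes that did not reach the filter's level in enough libraries included neurog1 and neurod4. For neurog1 the median was 7.61 CPM and the highest value 89.9 CPM in actl6a libraries, against 1.72 and 19.4 CPM in controls. For neurod4 the median was 2.65 CPM and the highest value 54.8 CPM in actl6a libraries, against 0.607 and 4.45 CPM in controls, and both medians lay far below the highest library.

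**Figure D4:**
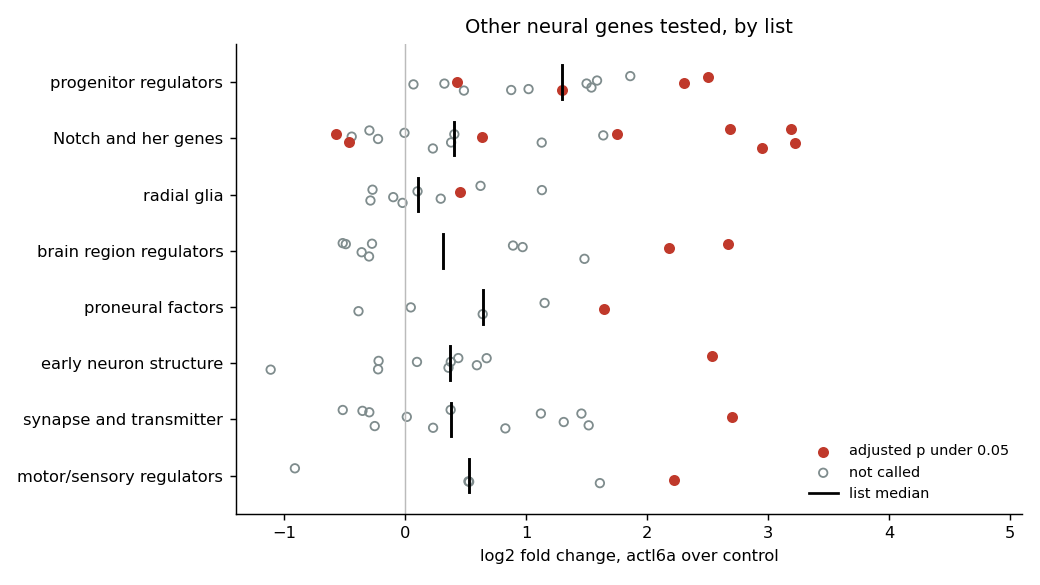
Log2 fold change, actl6a over control, of each tested row in 8 lists of neural genes without the 9 members, with red dots for an adjusted p under 0.05, open circles for rows not called and black bars for list medians. The progenitor regulators have a median of 1.297, and the synapse and transmitter genes one of 0.37. Without actl6a replicates 1 and 2, not drawn here, these medians were 0.36 and -0.38.

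Tissues close to the duct that could also carry these genes were examined by their own lists, beside 7.90% of all tested accessions called higher. Neural crest and pigment markers had 0 of 9 tested rows called and a median of -0.18. Of these 9 rows 4 had a positive log2 fold change, among them sox10 (0.93) and foxd3 (1.04). The sum of all neural crest and pigment markers ran from 131 to 463 CPM in actl6a libraries and from 129 to 588 CPM in controls. The lateral line, a sensory placode that expresses sox2 and migrates along the trunk, had 1 of 12 tested marker rows higher, the chemokine receptor gene cxcr4b (1.00, edgeR adjusted p = 0.0265). That call was lost without actl6a replicate 3, 5 or 8, and the median of the list was 0.25. Its sum ran from 1614 to 3007 CPM in actl6a libraries and from 1265 to 2141 CPM in controls, and the claudin gene cldnb, which the zebrafish pronephros also expresses, gave 27468 counts of it in actl6a libraries and 33462 in controls. Endocrine pancreas markers had 1 of 10 tested rows higher, sst2 with 411 counts over the actl6a libraries and 2 over the controls, and had a median of 0.26 and sums of 261 to 394 CPM in actl6a libraries and 203 to 318 CPM in controls. Other rows of that list were not called, among them scg3 (0.11), a secretory granule gene with 3016 counts over the actl6a libraries and 3794 over the controls, and the regulator gene pdx1 (0.82), with 547 over the actl6a libraries and 425 over the controls.

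The members were then set against the other neuron genes of the same library, as the mean log2 CPM of 23 tested rows of the early neuron and synapse lists. In actl6a libraries this neuron score was 4.197 and 4.352 in replicates 1 and 2 and 2.41 to 3.43 in the other 6, and in controls it was 2.40 to 3.39. In the 6 actl6a libraries Pearson's r with the score ran from -0.03 for sox3 to 0.65 for stmn1b, with two-sided exact permutation p from 0.167 to 0.939, and Spearman's rho from -0.14 to 0.77, with exact p from 0.103 to 0.919. In the 10 controls r ran from -0.50 for sox19a to 0.54 for stmn1b and Spearman's rho from -0.38 to 0.58, with a lowest adjusted p of 0.230 for r in permutation tests over 32 relations. Without the 2 controls farthest from the median score, replicates 3 and 4, r ran from -0.43 to 0.32. Over all 8 actl6a libraries, which fall into separate clusters, 3 relations passed the adjusted threshold by r (stmn1b, sox19a and the other progenitor genes). By Spearman's rho no relation passed there, with a lowest adjusted permutation p of 0.146 (stmn1b). For the 7 measured members r there ran from 0.69 to 0.91 and Spearman's rho from 0.52 to 0.90. Other tissues had r from -0.79 (pronephros) to 0.76 (notochord), with 0.73 for blood, 0.69 for muscle and -0.29 for epidermis. Without replicates 1 and 2 of actl6a and replicates 3 and 4 of the controls, 0 of 32 passed in the exact permutation tests, with 2 at an unadjusted p under 0.05. For stmn1b r was then 0.65 and for sox19a 0.54. With 6 libraries and adjustment over 32 relations few values of r could pass, so a lost call does not show that a relation is absent. Whether r differs between the groups was not tested, and neither was how the members vary with the other progenitor genes.

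Single libraries are given here as examples of sox3 levels and neuron scores outside replicates 1 and 2. No relation is read from them, because sox3 was listed for its difference between the groups. Actl6a replicate 5 had the lowest neuron score of its group, 2.41, with 21.8 CPM of sox3, and control replicate 3 had the highest of the controls, 3.39, with 1.41 CPM. Actl6a replicate 4, with a score of 3.02, had 16.96 CPM, close to the 16.2 CPM of control replicate 10 at a score of 3.10. With the score as a covariate, log2 fold changes were 2.88 (sox3), 1.48 (stmn1b), 1.07 (her4.1), 0.37 (sox2) and 0.66 (gap43). Of these sox3 and stmn1b were called higher, beside 8.05% of all tested accessions. Nothing is read from these calls, because the members were listed with this difference known. Actl6a replicates 1 and 2, with scores of 4.197 and 4.352, weigh heavily in this fit. The other progenitor genes, as the mean of 39 tested rows, had an r of 0.85 with the neuron score in the 6 actl6a libraries, with a two-sided exact permutation p of 0.0208 and an adjusted p of 0.333 over 32 relations. Spearman's rho there was 0.60, with an exact permutation p of 0.242. In controls r was 0.53 over 10 libraries and -0.32 without replicates 3 and 4. Without those 2 controls, endocrine pancreas markers gave the other relation at an unadjusted p under 0.05, with an r of -0.84.

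**Figure D5:**
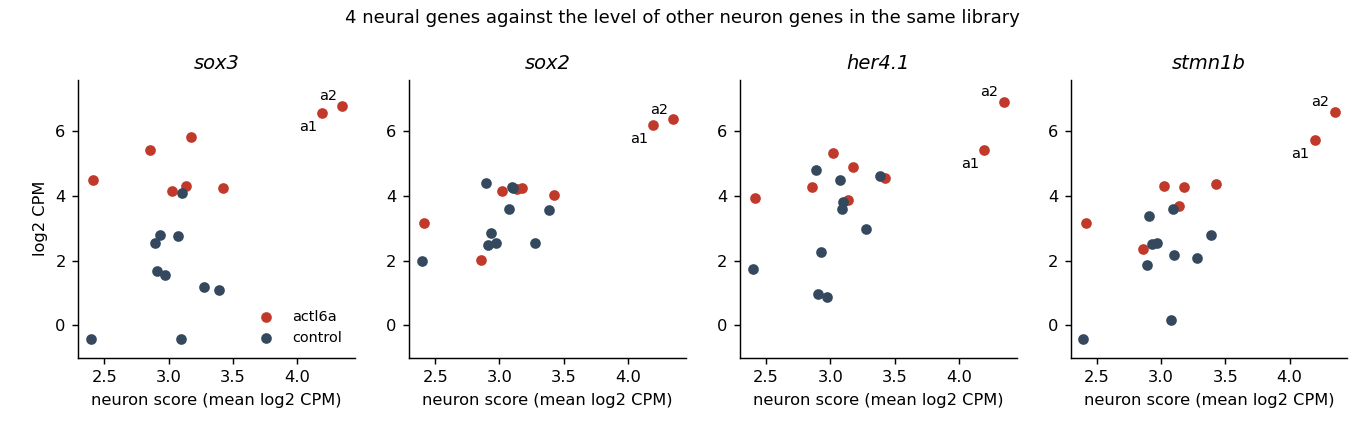
Log2 CPM of sox3, sox2, her4.1 and stmn1b in each library against the neuron score, the mean log2 CPM of other neuron genes, with actl6a libraries in red, controls in dark blue and a1 and a2 for actl6a replicates 1 and 2. These 2 libraries lie at 4.197 and 4.352, apart from the others, which span 2.40 to 3.43. For sox3 every actl6a library lies above every control at any score, the difference for which that gene was listed.

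The rows whose variation within the groups was most like that of the members were ranked over 18 libraries, among 8624 rows with a symbol and a mean of at least 10 CPM. For the mean log2 CPM of the 4 measured progenitor genes, the nearest were her4.2 (Pearson's r 0.88) and her4.3 (0.85), which may share reads with her4.1. They were followed by the claudin gene cldn5a (0.81), hist1h2a6 (0.80), dldh (0.79), pcolce2b (0.78), si:ch211-137a8.4 (0.77) and the cartilage and notochord collagen gene col9a2 (0.77). For the 3 measured neuron genes they were nat10 (0.82), pcolce2b (0.82), col9a2 (0.81), lin7b (0.79), ess2 (0.76), the Delta ligand gene dlb (0.75), fhdc1 (0.75) and zic2b (0.74). Both lists hold pcolce2b and col9a2. These likenesses are descriptions of 18 libraries, which share depth and in which replicates 1 and 2 weigh heavily.

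A list of 16 genes, of SWI/SNF subunits that are exchanged between progenitors and neurons in mouse, of other subunits and of neural corepressors, gave 4 called rows of 8 tested. Over all tested accessions 16.4% were called. With other tissue scores as covariates 0 rows of this list were called higher and 0 lower. Among the exchanged subunits, the progenitor gene phf10 was higher (0.39 ± 0.103 SE, edgeR adjusted p = 0.0160), as was actl6a (0.34 ± 0.0887 SE, edgeR adjusted p = 0.0137). The ATPase genes, whose products are in both forms of the complex in mouse, had 2 called rows. Of these smarca2 (-0.51 ± 0.125 SE, edgeR adjusted p = 0.00935) and smarca4a (-0.32 ± 0.0970 SE, edgeR adjusted p = 0.0303) fell, and the call of smarca4a was lost without actl6a replicate 6 or 7 or control replicate 3 or 7. The gene actl6b, neuron-specific in mouse, had 2 counts over the actl6a libraries and 7 over the controls as NM_001020740.2, and 10 over the actl6a libraries and 2 over the controls as XM_005170576.4. Of the remaining subunit genes in the list, exchanged or not, dpf3 (-0.44) was not called, and dpf1 and ss18 were not tested. For dpf1 there were 73 counts over the actl6a libraries and 37 over the controls, and for ss18 5 and 1.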

How the data were processed

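The deposited values were counts, whole numbers per RefSeq accession, in 1 table per group. The submitters' processing notes name cutadapt, FastQC, STAR, featureCounts, edgeR and the build GRCz11, with no version. Libraries were made with KAPA Hyper Prep kits, per the labels' protocols; strand setting and molecular identifiers are not given in the sources used here. The tables, with 30681 (actl6a) and 30714 (control) accessions, were merged and an accession missing from one was taken as 0 there. RefSeq symbols of assembly GRCz12tu matched 20215 of 32820 accessions (87.6% of counts), 9629 of them without the version number. Coordinates were not used.

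edgeR 4.0.16 in R 4.3.3 kept 14462 accessions with filterByExpr (minimum count 10) and 98.2% of counts, and fitted group alone by quasi-likelihood after TMM. The common biological coefficient of variation was 47.8%. A log2 fold change is actl6a over control, its SE comes from the F statistic, and the threshold was an adjusted p of 0.05. Log2 CPM used a prior count of 2. In simulated data for this comparison on 14462 genes, 41% of genes changed 2-fold and 91% of those changed 4-fold were recovered, with 8 false calls. Each gene was drawn independently there, without the differences in tissue markers that these libraries show, so these rates may not hold for them. Correlations used 100000 permutations for 10 libraries and all permutations for fewer. Alternatives were edgeR with RLE factors or library totals, no filter, DESeq2 1.42.0, limma 3.58.1 voom with sample weights, a replicate block, covariates, summed accessions and leaving out libraries.

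Members and lists were chosen with earlier results of these data known. Named genes were the members, actl6a, up to 4 called rows of lowest p per list, and the 8 rows most like each set of members. The remaining her4 and SoxB genes, dlb, notch2, notch3, actl6b, neurog1, neurod4, atp1a1a.4, sox10, foxd3, cldnb, ins, sst1.1, scg3, pdx1, gad1b, slc18a3a, chata and slc17a6b were named after their values were seen. Sequences were not used here.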

Additional observations from a re-analysis of the deposited data

Results flagged for a closer look

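Of 14 groups of values tested, 7 genes in each of 2 groups of libraries, 5 had a library far from the others, where chance gives about 1 in 20. Control replicate 10 had 16.2 CPM of sox3, the highest control and the one nearest to the actl6a libraries. Actl6a replicate 2 had 120 CPM of her4.1 and 70.2 CPM of sox19a. Control replicate 4 had 2.60 CPM of sox19a, which rests on 4 counts in the shallowest library. Control replicate 5 had 75.2 CPM of gap43, and without it the log2 fold change of gap43 was 1.27 (edgeR adjusted p = 0.0141).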

How the results depend on the processing

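Of 14462 tested accessions 2375 were called, with 3 of 5 members and 17 of the other neural rows higher. Leaving out 1 library at a time gave 1876 to 2417 accessions, 2 to 4 members and 12 to 19 other neural rows. With actl6a replicates 1 and 2 both left out, 1 member and 8 other neural rows were called. With other tissue scores as covariates 228 accessions, 0 members and 1 other neural row were called, where the fit has 4 more terms. DESeq2 called more rows throughout, with 3049 of 14462 accessions, 5 members and 22 other neural rows. The members it added were sox2 (DESeq2 adjusted p = 0.0195) and gap43 (DESeq2 adjusted p = 0.0414). The replicate block on 16 libraries called 1058 accessions, 1 member and 10 other neural rows, against 1850, 2 and 14 in the same 16 libraries without it. No pairing by replicate number was seen, since same-numbered deviations correlated from -0.12 to 0.32 and 0 of 8 libraries were closest to their own number. These values do not show that pairing was absent. The log2 fold change of sox1b turned to -0.019 in limma-voom and to -0.42 with the neuron score as covariate, and the cause was not tested. For Pearson's r the number of relations past the threshold was 3 of 32 under both other scales. By Spearman's rho no relation passed in the main scale, where the lowest adjusted permutation p was 0.146. Depth limits sox19a and neurod1, which had at most 4 and 11 counts in a control library.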
